A study of Rattus norvegicus with 22 samples.

Results

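The 22 polycystic kidneys described here were ordered by how much RNA of the proximal tubule they held, and the 11 lowest were set against the 11 highest. The order was chosen by a score, the mean of log2(TPM + 1) of 6 genes, where TPM is the transcript abundance scaled to the library total. The 6 genes were Slc34a1, Lrp2, Cubn, Slc5a2, Slc22a6 and Slc22a8, which encode uptake receptors and transporters of phosphate, glucose and organic anions. They are left out of all results. The sets are called the rich set and the poor set, and all differences are given as poor minus rich.

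All rats were male PKD/Mhm (Cy/+) rats, which carry a missense mutation of Anks6, and all were 8 months old. There were 6 untreated rats. Human stromal cells of adipose tissue (ASC) had been injected i.p. in 6 rats and i.v. in another 6, and 4 rats had been given CM, medium conditioned by such cells, over 6 months. RNA came from tissue of the left kidney, and the cell types were not separated. Which part of the kidney gave the RNA is not stated. Kidneys with fewer proximal tubule cells and kidneys with less of this RNA per cell cannot be told apart.

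The proximal tubule takes back most of the filtered glucose, amino acids, phosphate and protein. It burns fatty acids, breaks down amino acids and makes glucose. In polycystic kidneys, tubules widen into cysts, and injured tubule cells are known to lose transporters and to gain keratins and other stress genes.

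The score ran from 5.77 in i.v. ASC rat 5 to 7.43 in CM rat 4. It was 7.10 ± 0.22 (SD, n = 11) in the rich set and 6.28 ± 0.29 (SD, n = 11) in the poor set. The rats on each side of the split were close to each other, with 6.74 in untreated rat 3, the lowest of the rich set, and 6.67 in i.v. ASC rat 4, the highest of the poor set. Total counts ran from 12291823 to 14306773 in the rich set, median 13340379, and from 12195682 to 14734772 in the poor set, median 12518117. The ranges overlapped, and the median depth was lower in the poor set.

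The rich set held 4 untreated, 3 i.p. ASC, 1 i.v. ASC and 3 CM rats. The poor set held 2 untreated, 3 i.p. ASC, 5 i.v. ASC and 1 CM rat. The mean score was 6.70 ± 0.53 in untreated rats (SD, n = 6), 6.71 ± 0.53 after i.p. ASC (SD, n = 6), 6.55 ± 0.50 after i.v. ASC (SD, n = 6) and 6.87 ± 0.49 after CM (SD, n = 4). The differences from untreated rats were 0.0026, -0.15 and 0.17, all smaller than the spread between rats. The two-sided exact permutation test gave p = 0.989, 0.617 and 0.59, which became 0.989, 0.925 and 0.925 after Benjamini-Hochberg adjustment over 3 comparisons. Fisher's exact test of untreated rats over the sets, two-sided, gave p = 0.635.

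The sets followed the animal numbers in the labels. Animals 8 to 16, 9 rats, were all in the poor set, and animals 17 to 24, 7 rats, were all in the rich set. Among animals 1 to 7, the rich set held animals 2, 3, 5 and 7. What the number stands for is not given in the sources used here. Values within animal numbers up to 11 (4 rich, 6 poor) and above 11 (7 rich, 5 poor) are given beside many of the results, and the plot of list medians gives them for the lists of at least 10 tested genes. That split was chosen after the data were seen. The ranges also differed in treatment. Up to 11, the only untreated rat was untreated rat 1, in the poor set. Above 11, untreated rats 3, 4, 5 and 6 were in the rich set and untreated rat 2 in the poor set. Differences between the ranges thus cannot be told apart from differences in treatment.

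**Figure D1:**
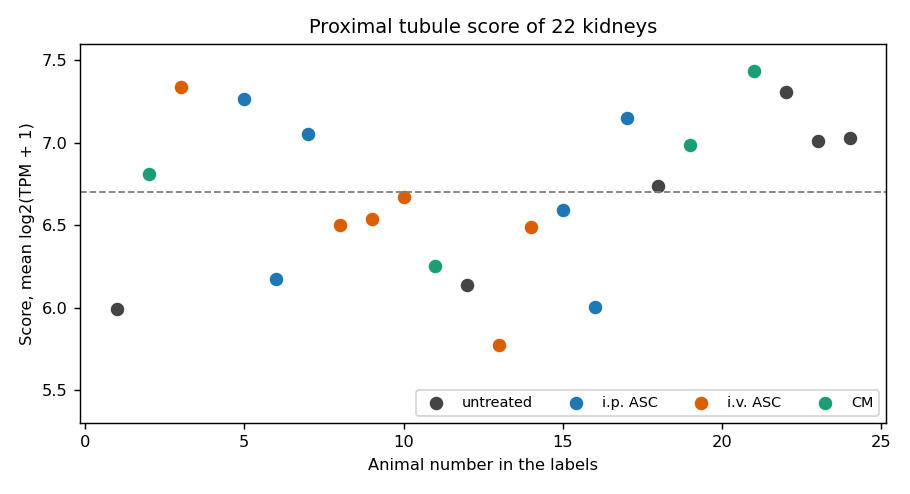
Proximal tubule score, the mean log2(TPM + 1) of 6 genes, of each of 22 kidneys against the animal number in the labels, with 1 point per rat coloured by treatment and a dashed line at the split between the sets. Animals 8 to 16 all lie below the line and animals 17 to 24 all lie above it.

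The proximal tubule genes that were not in the score followed it over the 22 rats. All 47 transporters and uptake genes had lower estimates in the poor set, with a median log2 fold change of -0.71, and so did all 46 enzymes, with a median of -0.77. Over the 12496 genes tested the median was 0.0021, and 50.67% of the estimates were higher in the poor set. Among the genes called in the comparison of all genes given further on were 4 of these transporters and 9 of these enzymes, none of them higher in the poor set. The share of all genes called lower was 1.66%. Since these transporters and enzymes describe the same tubule as the score, their calls are a description. The genes thus matched the label over the whole series, but not among the untreated rats alone. When the 3 highest untreated rats were set against the 3 lowest, the medians of these lists were -0.031 and 0.00030. Within animal numbers up to 11 they were -1.07 and -1.18, and above 11 they were -0.43 and -0.52.

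Levels are given in CPM, counts scaled to the library total after TMM adjustment. Hpd, an enzyme of tyrosine breakdown, had 356 to 746 CPM in the rich set, median 457, and 249 to 437 CPM in the poor set, median 309. Pck1, the key enzyme of glucose synthesis, had 253 to 811 CPM, median 590, against 98.7 to 478 CPM, median 169. The sets overlapped for both genes, although 10 of the poor kidneys lay below every rich kidney for Hpd.

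Abcc2, an apical exporter of conjugated anions, had 15.9 to 28.2 CPM in the rich set, median 21.4, and 10.03 to 17.7 CPM in the poor set, median 13.7. Slc13a3, a dicarboxylate transporter, had 307 to 800 CPM, median 491, against 178 to 520 CPM, median 266. Gatm, which makes the precursor of creatine, had 453 to 902 CPM, median 611, against 215 to 576 CPM, median 381.

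Slc5a12 and Slc7a13 did not follow the score alike. Slc5a12 is a lactate transporter of the early segments, and Slc7a13 is an amino acid transporter of the last segment. Slc7a13 ran from 58.0 to 3335 CPM in the rich set and from 12.6 to 1873 CPM in the poor set. Slc5a12 ran from 21.6 to 109 CPM in the rich set and from 12.8 to 97.2 CPM in the poor set. Both genes varied more within a set than between the sets. The genes tended to be opposed to each other within each set, a pattern noticed after the values were seen. The 4 rich kidneys with the highest Slc7a13 levels were those with the 4 lowest Slc5a12 levels of that set, and the poor kidney with the lowest Slc7a13 level, 12.6 CPM, had the highest Slc5a12 level of its set, 97.2 CPM. Their log2 fold changes turned with the animal number. For Slc7a13 the difference was -1.91 up to 11 and 0.23 above 11, and for Slc5a12 it was 0.60 and -0.93. Slc34a3, a phosphate transporter, had the same signs as Slc5a12, with 0.39 and -1.35. The differences between these ranges were not tested.

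**Figure D2:**
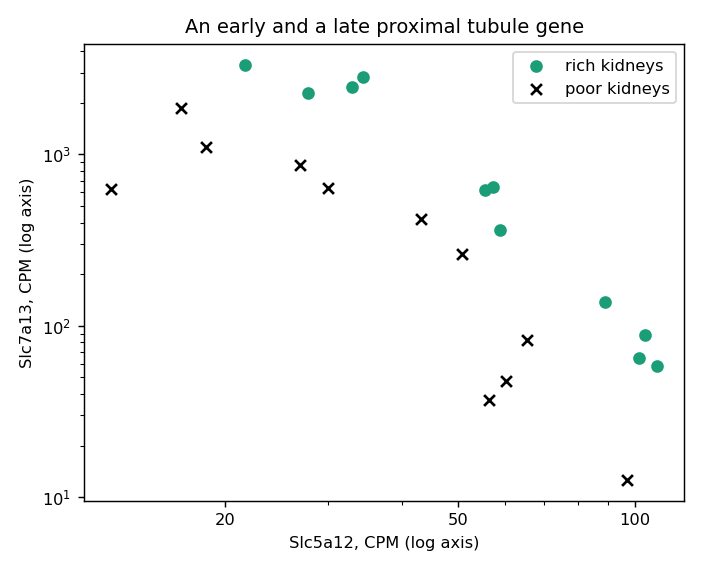
Slc5a12 against Slc7a13 in each of 22 kidneys, in CPM on log axes, with circles for the rich set and crosses for the poor set. Slc7a13 spans 12.6 to 3335 CPM over the kidneys, and within each set the kidneys with more Slc7a13 tend to hold less Slc5a12.

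The first principal component of all genes but the 6 held 45.9% of the variance, and the sets overlapped on it, from -25.6 to 53.9 in the rich set and from -35.6 to 35.6 in the poor set. Slc7a13, Cyp2c11, Rbp4 and Slco1a6 led one end, and the podocyte gene Wt1 and Ptgs2 were among the leading genes of the other. The second component held 10.2% and the sets overlapped less on it, from -19.5 to 1.08 in the rich set and from -8.57 to 25.7 in the poor set.

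Of 12496 genes, 419 passed an adjusted p of 0.05 in edgeR's quasi-likelihood test, which is 3.35% of those tested. Of these, 211 were higher in the poor set (1.69%) and 208 were lower (1.66%). Because the score came from the same libraries, these calls describe genes that varied with it, and do not measure an effect of a treatment. The changes were small, with a median fold of 1.22 among the higher genes and 1.31 among the lower genes. With library totals as the only scaling, 69.8% of the calls were higher, against 50.4% here. Most other settings leaned to lower calls. The share higher was 27.5% with the 7 highest against the 7 lowest rats, 29.6% with limma-trend and 32.7% with treatment as a covariate. It was 37.7% with the trend on transcript length removed, 43.9% with DESeq2 and 44.5% with RLE size factors. Without the 4 rats nearest the split it was 55.9%. Without the 6 untreated rats only 2 genes were called, and without untreated rat 2 alone 101 were called. Within animal numbers up to 11, 2740 of 12585 genes were called (21.8%), 1405 higher and 1335 lower. Above 11, 14 of 12614 were called (0.111%). With the range of animal number as a covariate 1754 were called. In the main split, 2821 of 12496 genes had an unadjusted p under 0.05 in edgeR, and DESeq2 called 912 of 12620 (7.23%). The sets did not overlap at all for 2 genes, 0.016% of those tested.

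Those 2 genes were Ssrp1 and Ahcyl2. Ssrp1, a histone chaperone, had 162 to 180 CPM in the rich set and 180 to 204 CPM in the poor set, a log2 fold change of 0.14 ± 0.03 (SE). Ahcyl2 had 151 to 225 CPM in the rich set and 109 to 150 CPM in the poor set, a log2 fold change of -0.32 ± 0.07 (SE).

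The 10 genes with the smallest adjusted p among those higher in the poor set included Krt18, St14, Pmm1, Sh3bgrl3, Pomk, Plp2, Tor3a, Sema4f and Wfdc2. Krt18, a keratin of simple epithelia, had 68.4 to 98.1 CPM in the rich set, median 82.9, and 89.1 to 161 CPM in the poor set, median 111. Its log2 fold change was 0.49 ± 0.09 (SE), adjusted p = 0.0156 in edgeR, and 8 of the 11 poor kidneys lay above every rich kidney. St14, the membrane protease matriptase, had 165 to 222 CPM, median 181, against 194 to 301 CPM, median 230, with 0.33 ± 0.06 (SE) and the same adjusted p = 0.0156 in edgeR. Wfdc2, a secreted protein of distal tubules and other epithelia, had 190 to 293 CPM, median 251, against 245 to 417 CPM, median 341, with 0.46 ± 0.09 (SE). With the 7 highest against the 7 lowest rats, Krt18 (adjusted p = 0.0595 in edgeR) and Wfdc2 (adjusted p = 0.0544 in edgeR) did not pass. The highest Krt18 level, 161 CPM, was that of i.v. ASC rat 3. All 3 genes kept their direction in both ranges of animal number, at 0.55 and 0.44 for Krt18, 0.32 and 0.37 for St14 and 0.50 and 0.41 for Wfdc2.

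The 10 on the other side included Hspa12a, Abcc2, Clcn6, Xylb, Nox4, Hpd, Acsm1, Nrip1 and Kcnj15. Abcc2, Hpd and Acsm1 belong to the proximal tubule lists. Hspa12a, a distant member of the Hsp70 family, had 36.7 to 59.5 CPM in the rich set, median 48.8, and 29.4 to 38.3 CPM in the poor set, median 31.1. Its log2 fold change was -0.55 ± 0.07 (SE), adjusted p = 0.00141 in edgeR. Kcnj15, a potassium channel, had 13.4 to 29.0 CPM, median 18.6, against 3.77 to 17.5 CPM, median 7.54, with -1.21 ± 0.22 (SE) and adjusted p = 0.0156 in edgeR. Nox4, an oxidase that makes hydrogen peroxide, had 28.3 to 50.3 CPM, median 41.8, against 18.5 to 35.3 CPM, median 25.0. In each of these genes at least 7 poor kidneys lay below every rich kidney.

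**Figure D3:**
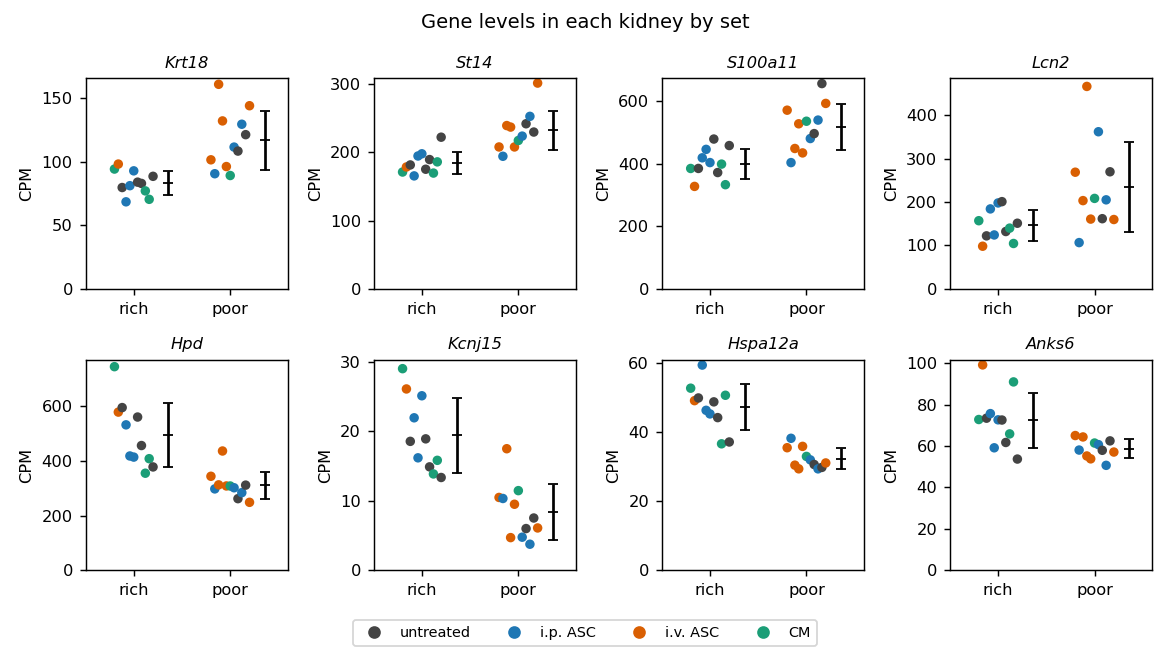
Levels of 8 genes in CPM in each kidney, with 1 point per rat coloured by treatment and ordered by score within each set, and the mean ± SD of each set (n = 11) to the right of its points. Krt18, St14 and S100a11 lie higher and Hpd, Kcnj15 and Hspa12a lower in the poor set, while Lcn2 and Anks6 overlap widely.

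Outside the gene lists, the genes most like the score by Spearman's rank correlation over 22 rats were Susd2 (0.92), Pfn3 (0.91), Xylb (0.91), Prodh2 (0.90) and Ahcyl2 (0.89). Those most opposed to it were Chst5 (-0.87), St14 (-0.86), Ssrp1 (-0.85), Tspan1 (-0.84) and Itm2c (-0.83). Susd2 had 56.9 to 132 CPM in the rich set, median 82.0, and 34.4 to 71.6 CPM in the poor set, median 54.5. These values are a description, since the libraries that gave the score also gave the genes.

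Genes of fuel use outside the proximal tubule lists had mostly lower estimates in the poor set. Of 37 genes of fatty acid oxidation, 3 fell, among them Cyp4a1 and Acox3, none rose and 36 had lower estimates, with a median log2 fold change of -0.23. Cyp4a1, a fatty acid hydroxylase, had 21.5 to 45.3 CPM in the rich set, median 31.3, and 12.2 to 31.7 CPM in the poor set, median 19.1. Of 27 genes of the citrate cycle, Pc and Ogdh fell and all 27 estimates were lower, median -0.17. Of 38 genes of amino acid breakdown, only Prodh fell in edgeR, median -0.38. Of the fatty acid, citrate cycle and amino acid genes, 19, 15 and 22 had an unadjusted p under 0.05. DESeq2 called 5, 3 and 6 of them lower. Of 69 genes of oxidative phosphorylation none passed the test in edgeR, and 39 had higher estimates, median 0.0074. At an unadjusted p under 0.05 there were 2, and DESeq2 called 1. Over all genes these counts were 2821 of 12496 and 912 of 12620. The share of all genes called lower was 1.66%. With the trend on transcript length taken out of each rat, 3 fatty acid genes, 0 citrate cycle and 0 amino acid genes were called by edgeR. In that setting 7 of the oxidative phosphorylation genes had higher estimates, median -0.083. With treatment as a covariate 13 of them had higher estimates, median -0.058, and without the untreated rats 9, median -0.089. None of them was called in these settings.

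The fuel genes differed between the ranges of animal number, and the difference was not tested. Within animal numbers up to 11, 29 of the fatty acid, 24 of the citrate cycle and 27 of the amino acid genes were called lower, with medians of -0.47, -0.41 and -0.71. None of them was called above 11, where the medians were -0.063, -0.0017 and -0.083. Over all genes, 21.8% were called up to 11, 1405 higher and 1335 lower, and 0.111% above 11. Of the 69 oxidative phosphorylation genes, 1 had a higher estimate up to 11 and 24 were called lower, median -0.21. Above 11, 66 had higher estimates and none was called, median 0.13. In the untreated rats alone 68 had higher estimates, median 0.26.

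Of 30 nephron transcription factors only Nr1h4, a bile acid receptor, fell in edgeR, and 20 estimates were lower, median -0.10. At an unadjusted p under 0.05 there were 13, and DESeq2 called 7 lower. Over all genes 2821 of 12496 had such a p, and DESeq2 called 912 of 12620. The share of all genes called lower was 1.66%. Nr1h4 had 36.4 to 53.0 CPM in the rich set and 31.7 to 43.9 CPM in the poor set, log2 fold change -0.28 ± 0.07 (SE), adjusted p = 0.0426 in edgeR. Hnf4a, a main regulator of the proximal tubule, had 265 to 791 CPM, median 337, against 178 to 461 CPM, median 214, with an adjusted p = 0.0999 in edgeR. It passed with treatment as a covariate. Ppara, a regulator of fatty acid oxidation, had a log2 fold change of -0.52, with an adjusted p = 0.0533 in edgeR.

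Of 48 genes of tubular injury and dedifferentiation, 7 rose in the poor set, none fell and 41 did not pass, with a median log2 fold change of 0.20. Of all genes tested, 1.69% were called higher. With the trend on transcript length taken out 3 were called, and with the 7 highest against the 7 lowest rats 1 was called. They included Krt18, S100a11, Tmsb10, Cd24, Nupr1 and S100a6. S100a11, a small calcium-binding protein, had 328 to 480 CPM in the rich set, median 399, and 404 to 657 CPM in the poor set, median 528. Tmsb10, a small protein that binds actin, had 473 to 845 CPM, median 673, against 742 to 1232 CPM, median 890. S100a11, Tmsb10 and S100a6 have short transcripts. Their relative lengths, the median over rats of count over TPM divided by that of the median gene, were 0.07, 0.15 and 0.12. They lost their calls with the length trend taken out, at adjusted p = 0.219, 0.134 and 0.102 in edgeR. The best known injury markers did not pass. Havcr1 (KIM-1) had 94.8 to 284 CPM, median 155, against 76.4 to 379 CPM, median 150. Lcn2 (NGAL) had 98.3 to 201 CPM, median 140, against 107 to 466 CPM, median 205, with an adjusted p = 0.0609 in edgeR. Vcam1, Spp1, Krt19, Cd44, Timp1 and Vim had log2 fold changes of 0.40, 0.23, 0.47, 0.19, 0.35 and 0.09, and Sox9 had -0.16, all without passing. The list median was 0.45 within animal numbers up to 11, where 21 were called higher and 1 lower, and 0.011 above 11, where none was called. The share of all genes called in either direction was 21.8% up to 11 and 0.111% above 11.

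Of the tubule segments beyond the proximal tubule, only the principal cell list held a called gene. None of 19 genes of the loop of Henle, 15 of the distal convoluted and connecting tubule and 19 of the intercalated cell passed in edgeR, and their medians were -0.026, -0.033 and 0.069. At an unadjusted p under 0.05 there were 3, 1 and 1 such genes, and DESeq2 called 0 in each list. Over all genes these counts were 2821 of 12496 and 912 of 12620. Umod, the most abundant urinary protein, had 1532 to 7946 CPM in the rich set and 1295 to 5154 CPM in the poor set. Of 17 principal cell genes 15 had higher estimates, median 0.26, and Elf3 rose. The share of all genes called higher was 1.69%. Aqp2, the water channel of the collecting duct, had 428 to 866 CPM in the rich set, median 558, and 671 to 1577 CPM in the poor set, median 726, adjusted p = 0.0621 in edgeR. The principal cell median was alike in both ranges of animal number, 0.27 and 0.29. The podocyte list had a median of -0.17, with none of 17 genes called by edgeR, 1 at an unadjusted p under 0.05 and 0 called by DESeq2. Its sign turned with the animal number, with 16 higher estimates and a median of 0.35 up to 11, and 1 higher estimate and a median of -0.26 above 11. With treatment as a covariate the podocyte median was 0.0083. The loop of Henle list turned the other way, from -0.14 up to 11 to 0.24 above 11, and the distal convoluted list went from 0.17 to -0.054.

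Most lymphocyte, macrophage and matrix genes had higher estimates over all rats, but few passed, at a share of all genes called higher of 1.69% and lower of 1.66%. Of 29 lymphocyte and plasma cell genes, the B cell genes Ms4a1 and Cd79b rose, and 25 estimates were higher, median 0.35. Ms4a1 had 1.89 to 10.8 CPM in the rich set, median 6.12, and 8.05 to 15.5 CPM in the poor set, median 12.1. Of 34 macrophage genes only Cd14 rose, and 31 estimates were higher, median 0.19. Of 51 matrix genes 38 estimates were higher, 1 rose and 1, Col4a4, fell, median 0.12. Col1a1 had 123 to 455 CPM in the rich set and 196 to 545 CPM in the poor set, so that its sets overlapped. None of 29 chemokine, 23 MHC or 22 complement genes passed in edgeR. At an unadjusted p under 0.05 there were 8, 5 and 2, and DESeq2 called 1, 2 and 0. Over all genes these counts were 2821 of 12496 and 912 of 12620. Cd68, Cd3e, C3 and Col3a1 had log2 fold changes of 0.18, 0.38, 0.45 and 0.37 without passing.

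The immune and matrix lists had unlike medians in the ranges of animal number. Up to 11, the medians were 1.02 for lymphocytes, 0.85 for macrophages, 0.85 for chemokines, 0.76 for complement and 0.75 for matrix. Above 11 they were 0.076, -0.084, -0.034, -0.086 and -0.13. The MHC median was 0.55 up to 11, with 15 genes called higher, and 0.030 above 11, with none called. Of the 31 interferon-stimulated genes 22 had lower estimates over all rats. Up to 11, 30 of them had higher estimates and 15 were called higher, median 0.47, while above 11 only 2 had higher estimates and none was called, median -0.31. The 4 rich kidneys up to 11 were also those at the high end of the first principal component. Of all genes, 21.8% were called up to 11 and 0.111% above 11, in either direction. The difference between the ranges was not tested.

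**Figure D4:**
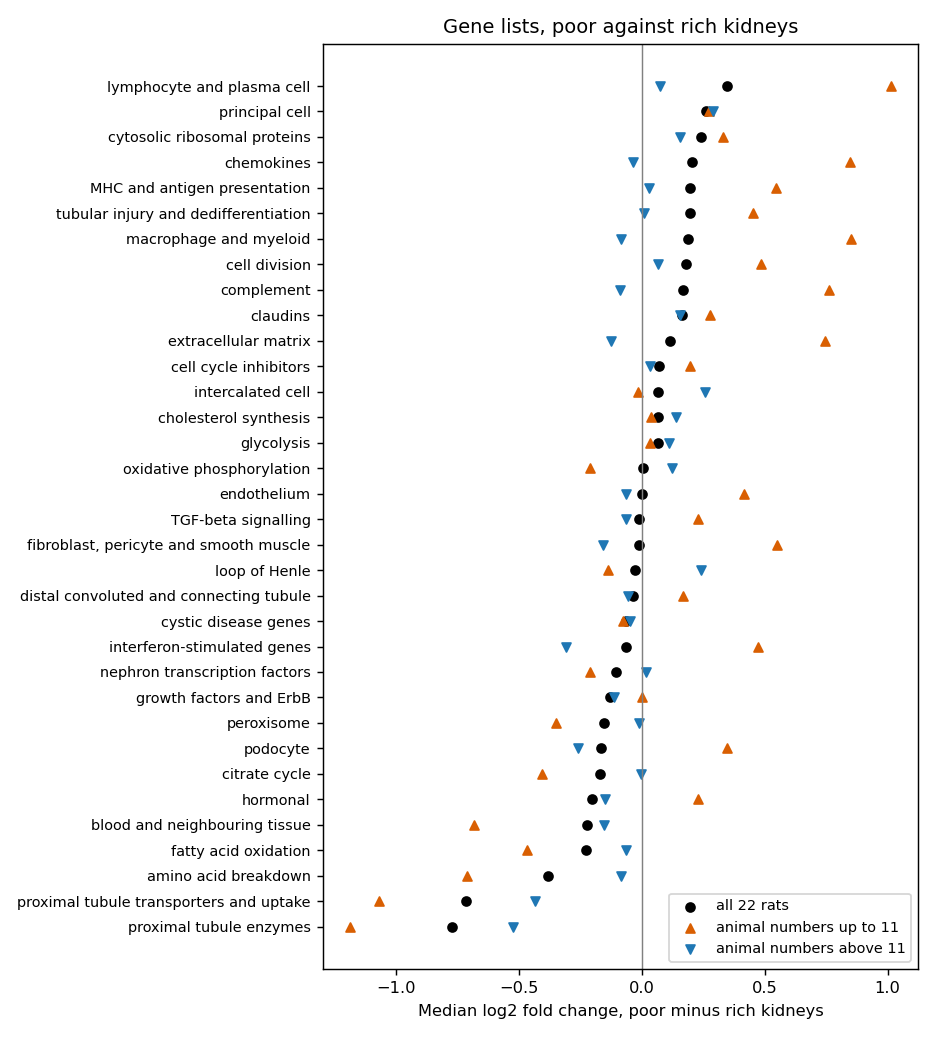
Median log2 fold change, poor minus rich set, of each gene list with at least 10 genes tested, for all 22 rats (circles) and within animal numbers up to 11 and above 11 (triangles). Both proximal tubule lists lie lowest in all 3 series, and the lymphocyte list moves from 1.02 up to 11 to 0.076 above 11.

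Of 37 cell division genes none passed in edgeR, although 35 estimates were higher, median 0.18. At an unadjusted p under 0.05 there were 14, and DESeq2 called 1, beside 2821 of 12496 and 912 of 12620 of all genes. Within animal numbers up to 11, 11 were called higher, median 0.49, and above 11 none, median 0.067. The shares of all genes called in these ranges were 21.8% and 0.111%, in either direction. Mki67 had 11.98 to 26.9 CPM in the rich set and 17.04 to 32.4 CPM in the poor set. Of 17 cell cycle inhibitors only Cdkn2a rose, from 0.24 to 1.94 CPM in the rich set to 0.41 to 2.85 CPM in the poor set, levels near 1 CPM. Cdkn2a was not called with RLE size factors or with the length trend taken out. The share of all genes called higher was 1.69%.

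Of 29 genes of cystic disease, 2 fell, among them Anks6. The share of all genes called lower was 1.66%. Anks6, the gene mutated in these rats, had 53.7 to 99.1 CPM in the rich set, median 72.6, and 50.7 to 65.1 CPM in the poor set, median 58.1. Its log2 fold change was -0.30 ± 0.08 (SE), adjusted p = 0.0451 in edgeR, and was -0.45 and -0.23 in the ranges of animal number. Only 1 poor kidney lay below every rich kidney. With the trend on transcript length taken out the difference was -0.29 and was not called, adjusted p = 0.102 in edgeR. The relative length of Anks6 is 2.23. Pkd1 did not pass, with 73.4 to 139 CPM in the rich set and 89.5 to 139 CPM in the poor set.

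Of all genes tested, 1.69% were called higher and 1.66% lower. Of 34 growth factor and ErbB genes only Igf1r was called. It had 25.5 to 34.4 CPM in the rich set and fell to 20.5 to 29.1 CPM in the poor set. Of 17 claudins, the tight junction proteins, Cldn7 and Cldn9 rose. Of 24 hormonal genes only Ptgs1, a prostaglandin synthase, rose, from 30.4 to 47.5 CPM to 41.8 to 83.7 CPM. Of 31 genes of TGF-beta signalling only Acvr1, a receptor of bone morphogenetic proteins, fell. Of 24 glycolysis genes only Pfkfb4, a regulator of glycolysis, fell. Hk2, which starts glycolysis, had 10.7 to 21.8 CPM in the rich set and 18.2 to 32.4 CPM in the poor set, adjusted p = 0.0551 in edgeR. Of 29 fibroblast and muscle genes only S100a4 rose, with 19.6 to 40.3 CPM against 33.3 to 121 CPM. The 121 CPM was that of i.v. ASC rat 3 alone, and the next highest rat had 58.8 CPM. S100a4 was not called with RLE size factors, treatment as a covariate, the 7 highest against the 7 lowest rats or the length trend taken out. None of 35 peroxisome, 21 endothelium or 31 interferon-stimulated genes passed in edgeR, with medians of -0.15, 0.0025 and -0.065. At an unadjusted p under 0.05 there were 9, 0 and 1, and DESeq2 called 3, 0 and 0. Over all genes these counts were 2821 of 12496 and 912 of 12620. Up to 11, 16 peroxisome genes were called lower and 1 higher, median -0.35, and above 11 none was called, median -0.012. The shares of all genes called in these ranges were 21.8% and 0.111%, in either direction. The endothelium median was 0.42 up to 11 and -0.062 above 11. Nphs1, Slc12a1, Slc12a3, Kl, Egf, Acta2, Cdkn1a and Ldha had log2 fold changes of -0.11, -0.08, 0.03, -0.19, -0.36, -0.26, 0.11 and 0.14 without passing.

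Of 15 genes of blood and neighbouring tissue none passed in edgeR, 5 had an unadjusted p under 0.05, and DESeq2 called 1 higher and 3 lower. Over all genes 2821 of 12496 had an unadjusted p under 0.05, and DESeq2 called 912 of 12620. Hbb had 26.0 to 330 CPM in the rich set and 15.8 to 76.1 CPM in the poor set, and Alas2, the enzyme of haem synthesis in red cells, had 0.91 to 10.3 CPM against 0.40 to 2.26 CPM. Of 14 urothelium genes 6 were tested and none was called by edgeR, with 2 at an unadjusted p under 0.05 and 0 called by DESeq2. All 6 estimates were higher, with a median log2 fold change of 0.88. That median was -0.072 with treatment as a covariate and 0.069 with the 7 highest against the 7 lowest rats. Upk1b had a median of 1.24 CPM in the rich set and 1.21 CPM in the poor set, but reached 40.4 CPM in i.v. ASC rat 1 and 64.1 CPM in i.v. ASC rat 3, the rat with the highest Krt18 and S100a4 levels. The part of neighbouring tissue in the differences was not tested.

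Ribosomal protein and cholesterol genes were picked after their values were seen. Of 75 cytosolic ribosomal protein genes, 41 rose, none fell and 69 had higher estimates, median 0.24. Rpl13a had 1020 to 1276 CPM in the rich set, median 1092, and 1118 to 1825 CPM in the poor set, median 1365. Ribosomal protein genes share sequence with many pseudogenes, so their counts are uncertain. Of 21 genes of cholesterol synthesis Cyp51, Srebf2 and Aacs rose. The share of all genes called higher was 1.69%. Calls were unevenly spread over transcript length. In the tenth of genes with the shortest transcripts 70 of 1251 rose and 6 fell, with a median log2 fold change of 0.072, and in the tenth with the longest 8 of 1249 rose and 29 fell, with a median of -0.047. The ribosomal protein genes had a median relative length of 0.187. With the trend on length taken out of each rat 16 of them were called, with treatment as a covariate 8, with the 7 highest against the 7 lowest rats 2, and without the untreated rats 0. Within animal numbers up to 11, 44 were called, and above 11 none, beside 21.8% and 0.111% of all genes in either direction.

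The direction of change was also read across rats that were not shared, a comparison chosen after the data were seen. Of the 200 genes with the smallest p in the 16 treated rats, 59 were higher in the poor set and 55 of these (93.2%) were also higher among the 3 lowest untreated rats. Of the 141 lower genes, 126 (89.4%) were also lower. Over all genes these shares were 56.6% and 54.5%. The 3 lowest untreated rats included untreated rat 3 of the rich set, and the 3 highest were animals 22, 23 and 24. In that split the medians of the proximal tubule transporters and enzymes were -0.031 and 0.00030. Genes of the same kidneys vary together, so these shares are a description and do not measure replication. The slope of expression on the score did not pass for any of 12496 genes between untreated and treated rats, 0.0% of those tested by edgeR, with 266 at an unadjusted p under 0.05 and 0 called by DESeq2.

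The promoter windows of the called genes were searched for letters bound by HNF4, the factor family of Hnf4a, and by AP-1, a factor of stress responses. Windows of RefSeq on GRCr8 run from 250 bases before to 50 after the start of the gene, and 10112 tested genes had one. The AP-1 letters TGACTCA, on either strand, were in 9 of 156 windows of lower genes (5.77%), 5 of 169 windows of higher genes (2.96%) and 353 of all (3.49%). The HNF4 letters CAAAGTCCA, on either strand, were in 0 of the lower, 1 of the higher and 36 of all windows. The letters TGACGTCA of the CRE, which CREB binds, were in 6 of the lower (3.85%), 8 of the higher (4.73%) and 309 of all windows (3.06%), on either strand. Not every motif searched is reported here. A match is a description and no binding site. The windows of Ahcyl2, whose sets did not overlap, and of Tor3a, among the leading higher genes, are shown since both hold the AP-1 letters while the genes went opposite ways. Capitals mark the letters found. The window of Ahcyl2 is at chr4:59348497-59348796, plus strand, and that of Tor3a at chr13:71348576-71348875, minus strand.
Ahcyl2: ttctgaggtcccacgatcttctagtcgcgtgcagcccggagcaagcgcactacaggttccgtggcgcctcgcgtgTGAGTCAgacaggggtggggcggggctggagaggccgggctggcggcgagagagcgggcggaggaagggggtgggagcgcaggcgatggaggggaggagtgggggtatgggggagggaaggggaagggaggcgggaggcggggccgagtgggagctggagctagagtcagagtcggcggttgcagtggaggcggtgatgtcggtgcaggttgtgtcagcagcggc
Tor3a: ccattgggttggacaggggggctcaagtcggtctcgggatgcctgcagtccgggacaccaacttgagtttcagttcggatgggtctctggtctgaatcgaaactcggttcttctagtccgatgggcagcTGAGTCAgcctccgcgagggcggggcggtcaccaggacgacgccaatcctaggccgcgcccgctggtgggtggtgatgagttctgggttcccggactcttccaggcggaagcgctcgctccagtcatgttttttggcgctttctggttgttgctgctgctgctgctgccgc
Tor3a had 23.8 to 34.3 CPM in the rich set, median 29.1, and 32.0 to 46.8 CPM in the poor set, median 35.9.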

How the data were processed

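Kidney RNA of 22 rats was analysed, grouped by the labels and then split in 2 sets of 11 by the score. The submitters' processing notes name Trim Galore 0.6.4, kallisto 0.4.6 and the build rn6. The authors deposited an estimated count per gene, not normalized, and a TPM value, which they scaled by transcript length and total. The paper also names DESeq2 and a human transcript package, although the identifiers are those of the rat. Of 17334 genes, 17179 had a symbol in the RefSeq table of GRCr8, used for names, and promoter windows came from the same assembly, not from rn6. The estimated counts, of which 14.1% were not whole, were rounded.

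The sets were compared with edgeR 4.0.16 in R 4.3.3 (TMM, filterByExpr, quasi-likelihood F test, Benjamini-Hochberg adjustment, threshold 0.05). Alternatives used DESeq2 1.42.0, limma 3.58.1, other scalings, filters, covariates and splits, and the omission of each rat. CPM used TMM-scaled totals. Replicates were separate rats. Total counts of 12195682 to 14734772 limit low genes. The procedure was tested on simulated data. The members and gene lists were chosen with earlier results of these data known. Of 1061 list entries 1010 matched, and Krt7 and Pkhd1 are not analysed here. Relative length was the ratio of the count to TPM, over values of at least 5 counts.

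The genes named were a list of injury, segment, immune and cystic disease genes, the 10 smallest adjusted p in each direction, up to 4 list members in the main direction and 2 in the other, blood genes, and the 5 genes most and least like the score. The ABCB5+ groups and the other CM rats were not analysed here. Some genes that the rule names are not reported here.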

Additional observations from a re-analysis of the deposited data

How the results depend on the processing

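The count of 419 genes depended on the processing. It was 635 with library totals only, 237 with no filter, 912 with DESeq2, 207 with the 7 highest against the 7 lowest rats and 684 with the score as a continuous covariate. It was 651 without Slc5a2 and 272 without Slc22a8 in the score, where 2 rats changed set each. It was 2 without the untreated rats and 0 in the untreated rats alone, where 2524 genes had an unadjusted p under 0.05 in edgeR. With settings chosen after the data were seen, it was 1754 with animal number as a covariate, 2740 within animal numbers up to 11, 14 above 11 and 305 with the trend on transcript length removed. Leaving out each rat in turn gave 101 to 584, and in 14 of 22 cases the count fell by more than 1.5 times. The 101 came without untreated rat 2. The cause was not tested. The comparison of slopes gave 0 genes in each setting. The score by treatment passed in none of its settings. No paired analysis was possible because the labels give the groups no shared replicate numbers. Depth limits genes near 1 CPM.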
